A study of Mus musculus with 6 samples.

Results

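The respiratory chain of mammalian mitochondria is built from subunits that 2 genomes encode, and 101 of its genes were found among the 33696 in the gene table by the start of their symbols: 13 encoded in the mitochondrion (mt-Nd, mt-Cytb, mt-Co and mt-Atp) and 88 in the nucleus (Nduf, Sdh, Uqcr, Cox4 to Cox8 and Atp5). Mouse brain cells had been sequenced in droplets, with 2 libraries in each of 3 groups, named TRPM2 Mg KO bilirubin, WT bilirubin and WT vehicle. The knockout was thus sequenced with bilirubin only, and the labels hold no knockout with vehicle. "Mg" is not spelled out in the labels, and the dose, route and duration of bilirubin, the brain region, and the age and sex of the animals are not given in the sources used here. Replicates are not stated to be separate animals, so a p-value here weighs only the spread among libraries, part of which may be technical. Bilirubin is the breakdown product of haem that the liver conjugates and clears, and TRPM2 is a calcium-permeable cation channel opened by ADP-ribose and oxidative stress.

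Electrons from NADH enter the chain at complex I and those from succinate at complex II. They pass through complex III and cytochrome c to complex IV, where oxygen is reduced, and complex V uses the resulting proton gradient to make ATP. The mitochondrial genome encodes core subunits of complexes I, III, IV and V, while complex II is entirely nuclear. Its genes are transcribed inside the organelle as long precursors from both strands, which are cut into mRNAs, most of them polyadenylated. The nuclear genes are transcribed singly and their proteins are imported. In brain, the choroid plexus epithelium, which secretes cerebrospinal fluid, is known for its many mitochondria, and microglia are the resident macrophages.

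By complex, the 13 mitochondrially encoded members held 7 genes of complex I, 1 of complex III, 3 of complex IV and 2 of complex V. The 88 nuclear members held 40 of complex I, 4 of complex II, 8 of complex III, 19 of complex IV and 17 of complex V, which includes Ndufa4 and Ndufa4l2 under complex I by their symbols although NDUFA4 is now known as a complex IV subunit. Of these, 13 and 86 passed the low-count filter in whole libraries. Reads of mt-Atp8 and mt-Atp6, and of mt-Nd4l and mt-Nd4, come from overlapping genes, and Cox5b-ps, Ndufb4b and Ndufb11b have near-identical relatives, so the counts of these are uncertain. Ndufb11b had 0 UMIs in all 6 libraries.

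The libraries differed in ways that the groups do not explain. Barcodes numbered 4137 to 24309, UMIs (molecule counts) 24165563 to 63402551, and the median depth per barcode was 1149 to 2071. Cells were put into classes by marker genes, and 39458 of 94760 kept cells (41.6%) had a class. The 7 classes with at least 20 cells in every library, called microglia-like, endothelial-like, mural-like, choroid plexus-like, ependymal-like, astrocyte-like and oligodendrocyte-like, held 35731 cells. All markers of its own list were detected in each class. Choroid plexus markers, which the other classes should lack, made up 4753 to 89268 CPM (UMIs scaled to the same total per sum) of the other 6 classes and 153005 to 232347 CPM of choroid plexus-like cells, so RNA of that epithelium was present throughout. In the whole libraries their sum was 72785 and 68375 CPM in TRPM2 Mg KO bilirubin, 92478 and 125221 CPM in WT bilirubin, and 11725 and 83685 CPM in WT vehicle. Between pairs of libraries 12 to 144 cell barcodes were shared, 980 in all. Trpm2 had 6.60 and 4.59 CPM in the libraries labelled TRPM2 Mg KO bilirubin (311 and 111 UMIs), 5.12 and 8.21 CPM in WT bilirubin (316 and 202) and 11.8 and 6.42 CPM in WT vehicle (323 and 407). In microglia-like cells it had 13.6 and 20.2 CPM, 15.5 and 34.8 CPM, and 20.8 and 13.2 CPM in that order, so the 3 groups overlapped and Trpm2 did not set the libraries labelled knockout apart. The labels do not say which part of the gene was removed or in which cells, so a 3' tag cannot check them, and the knockout libraries are called so by their label alone.

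The mitochondrially encoded mRNAs took a larger share of UMIs in the libraries labelled TRPM2 Mg KO bilirubin than in WT vehicle, in whole libraries and in each of the 7 classes, while the nuclear subunit mRNAs did not. WT bilirubin was split: its replicate 1 stood with the knockout libraries and above them, and its replicate 2 stood near WT vehicle. The mitochondrially encoded share was 3.73% and 3.98% of all UMIs in TRPM2 Mg KO bilirubin, 4.87% and 0.783% in WT bilirubin, and 1.07% and 0.923% in WT vehicle. Group means were 3.86% ± 0.176, 2.83% ± 2.89 and 0.997% ± 0.105 (SD, n = 2 libraries each). The knockout and WT vehicle libraries did not overlap, whereas WT bilirubin replicates 1 and 2, which carry the same label, were 6.22-fold apart.

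The nuclear share, by contrast, was 5.48% and 7.32% in TRPM2 Mg KO bilirubin, 6.18% and 7.23% in WT bilirubin, and 5.58% and 7.79% in WT vehicle. Means were 6.40% ± 1.30, 6.71% ± 0.745 and 6.69% ± 1.56 (SD, n = 2), and the 3 groups overlapped. The ratio of mitochondrially encoded to nuclear UMIs was 0.681 and 0.544 in TRPM2 Mg KO bilirubin, 0.789 and 0.108 in WT bilirubin, and 0.192 and 0.118 in WT vehicle. On the log2 scale the mean ratio of TRPM2 Mg KO bilirubin was 2.01 above that of WT vehicle and 1.06 above that of WT bilirubin, and WT bilirubin was 0.95 above WT vehicle. With 2 libraries against 2 no exact permutation test can pass, so these ratios are descriptions. Both differences that involve WT bilirubin change sign with 1 library: TRPM2 Mg KO bilirubin minus WT bilirubin was 2.49 without WT bilirubin replicate 1 and -0.37 without its replicate 2, and WT bilirubin minus WT vehicle was -0.48 and 2.39. The difference between TRPM2 Mg KO bilirubin and WT vehicle ran from 1.66 to 2.36 when each library was left out in turn. In whole-library sums, fewer cells of a type and less RNA per cell cannot be told apart.

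**Figure D1:**
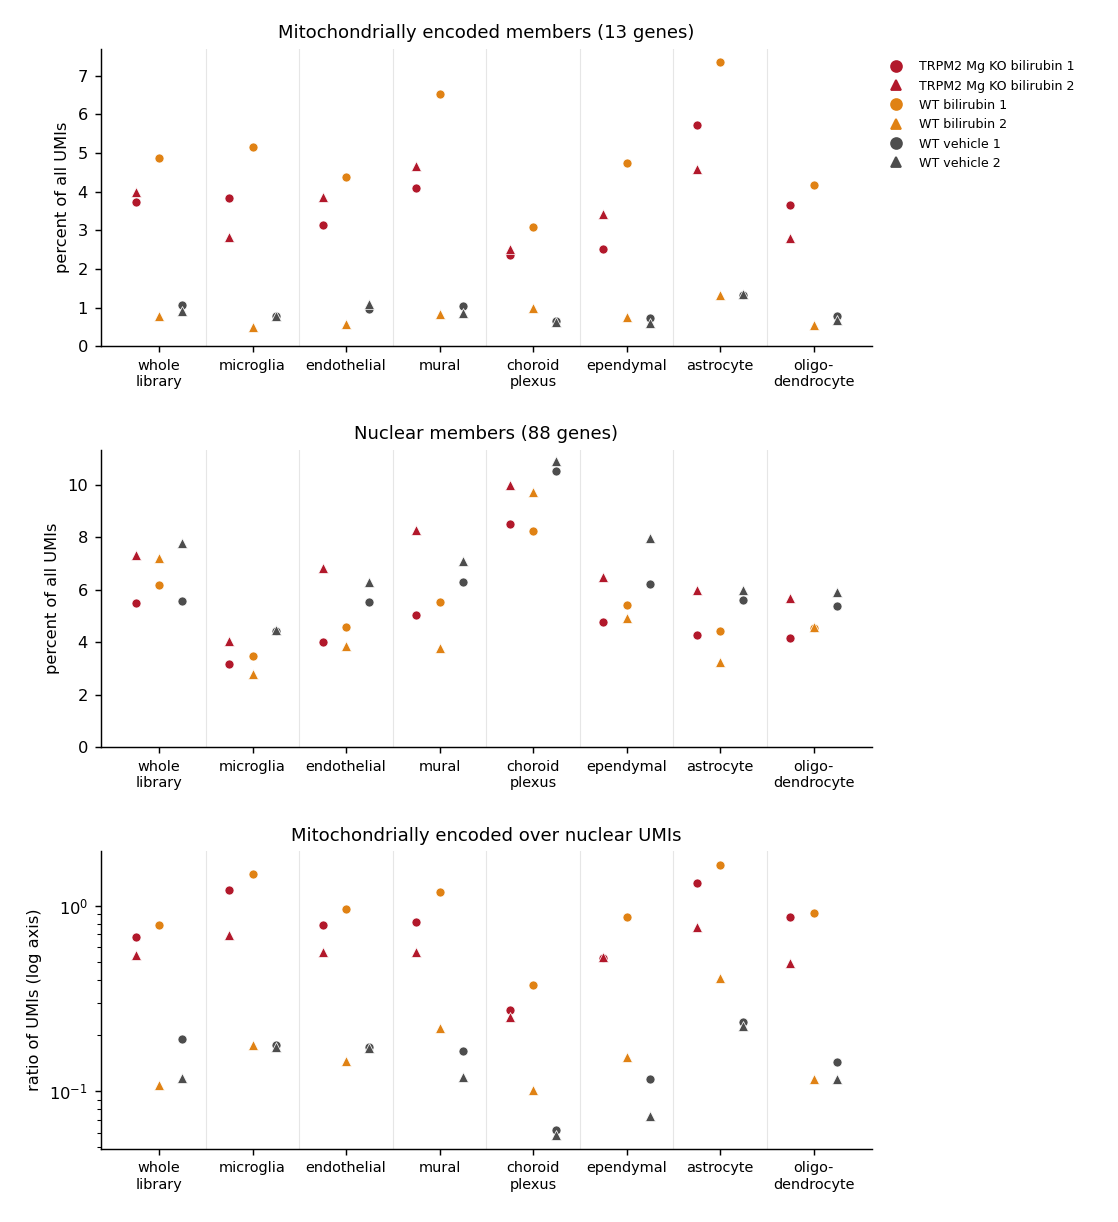
Mitochondrially encoded and nuclear respiratory chain UMIs as percent of all UMIs, and the ratio of both on a log scale, in whole libraries and 7 marker-gated classes. Each point is 1 library. TRPM2 Mg KO bilirubin replicates 1 and 2 and WT bilirubin replicate 1 lie above the other 3 libraries in the ratio of every class.

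The same 3 libraries were high in every class. In microglia-like cells, with 472 to 3382 cells per library, the ratio was 1.21 and 0.696 in TRPM2 Mg KO bilirubin, 1.48 and 0.177 in WT bilirubin, and 0.178 and 0.173 in WT vehicle. In choroid plexus-like cells it was 0.276 and 0.251 in TRPM2 Mg KO bilirubin, 0.373 and 0.102 in WT bilirubin, and 0.0616 and 0.0580 in WT vehicle. WT bilirubin replicate 2 thus matched WT vehicle in microglia-like cells but lay above both WT vehicle libraries in choroid plexus-like cells.

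WT bilirubin and WT vehicle also did not overlap in the ratio of mural-like, ependymal-like and astrocyte-like cells. Astrocyte-like cells had ratios of 1.33 and 0.764 in TRPM2 Mg KO bilirubin, 1.66 and 0.409 in WT bilirubin, and 0.237 and 0.225 in WT vehicle. Mural-like cells, of which WT bilirubin replicate 2 had only 20, had ratios of 0.814 and 0.561, 1.18 and 0.220, and 0.166 and 0.120 in the same order of groups. The 31 mural-like cells of TRPM2 Mg KO bilirubin replicate 2 had a median of 7474 UMIs, against 807 to 1830 in the other libraries. Their mural markers were low, as given below, so their class is less certain. In endothelial-like and oligodendrocyte-like cells WT bilirubin replicate 2 fell within or below the WT vehicle range, as in whole libraries. Across the 7 classes the lowest of the 3 high libraries had at least 0.251 and the highest of the other 3 at most 0.409, and within each class the 3 high libraries stayed above the rest.

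The cells without a class showed the same order. Those with too few markers had ratios of 1.07 and 0.537 in TRPM2 Mg KO bilirubin, 1.15 and 0.157 in WT bilirubin, and 0.185 and 0.145 in WT vehicle. Those with markers of several classes had 0.832 and 0.574, 0.888 and 0.077, and 0.204 and 0.135. Cells with over 15% mitochondrially encoded UMIs numbered 45 and 1 in TRPM2 Mg KO bilirubin, 565 and 5 in WT bilirubin, and 0 and 0 in WT vehicle. High-share cells were thus few, and most came from WT bilirubin replicate 1.

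The nuclear share was lower in WT bilirubin than in WT vehicle within the classes. In all 7 of them both WT bilirubin libraries lay below both WT vehicle libraries, although the whole-library shares overlapped. Microglia-like cells had a nuclear share of 3.17% and 4.06% in TRPM2 Mg KO bilirubin, 3.47% and 2.80% in WT bilirubin, and 4.42% and 4.49% in WT vehicle. WT bilirubin replicate 2, low in mitochondrially encoded mRNA, was also the library with the lowest nuclear share in these cells. In choroid plexus-like cells the nuclear share was 8.52% and 10.0% in TRPM2 Mg KO bilirubin, 8.26% and 9.72% in WT bilirubin, and 10.5% and 10.9% in WT vehicle. TRPM2 Mg KO bilirubin lay below WT vehicle without overlap in microglia-like and choroid plexus-like cells, and overlapped it in the other 5 classes.

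Tests were made per gene across all genes, with the quasi-likelihood test of edgeR and Benjamini-Hochberg adjustment. In whole libraries none of the 13 mitochondrially encoded members passed in any of the 3 comparisons. Without adjustment 10 of 13 had a p under 0.05 in TRPM2 Mg KO bilirubin against WT vehicle, and 1 of 13 in each comparison with WT bilirubin, beside 6.29% of all genes in the first, 3.45% in TRPM2 Mg KO bilirubin against WT bilirubin and 10.5% in WT bilirubin against WT vehicle. DESeq2 called 3, 0 and 0 in that order, and edgeR with no low-count filter 5 (1.09% of all genes higher), 1 (0.327%) and 0. No share of all genes stands beside the DESeq2 counts, here or in the classes below. In the main edgeR fit, the share of all 19501 genes called was 0% for TRPM2 Mg KO bilirubin against WT vehicle and 0.00513% for each of TRPM2 Mg KO bilirubin against WT bilirubin and WT bilirubin against WT vehicle, so few genes of any kind passed. All 13 log2 fold changes were above 0 in each comparison. Their median was 2.09 in TRPM2 Mg KO bilirubin against WT vehicle, 0.63 in TRPM2 Mg KO bilirubin against WT bilirubin and 1.41 in WT bilirubin against WT vehicle, beside medians over all genes of 0.07, 0.02 and 0.05.

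Of complex III, mt-Cytb (cytochrome b, the only mitochondrially encoded subunit of that complex) had 7341 and 5841 CPM in TRPM2 Mg KO bilirubin, 9597 and 1310 CPM in WT bilirubin, and 1076 and 1246 CPM in WT vehicle. It was the member with the lowest unadjusted p in WT bilirubin against WT vehicle (log2 fold change 2.30, SE 0.95, edgeR adjusted p = 0.454), and there the libraries did not overlap. In TRPM2 Mg KO bilirubin against WT vehicle its log2 fold change was 2.60 (SE 0.97, edgeR adjusted p = 0.74).

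Of complex IV, mt-Co1, the catalytic subunit that binds the haem groups and copper at which oxygen is reduced, had 6135 and 6194 CPM in TRPM2 Mg KO bilirubin, 7038 and 1225 CPM in WT bilirubin, and 1838 and 1435 CPM in WT vehicle. The copper-binding subunit that takes electrons from cytochrome c, mt-Co2, had 5196 and 6162 CPM, 7798 and 1097 CPM, and 1457 and 1410 CPM in that order of groups. For mt-Co3 the values were 3764 and 5430 CPM in TRPM2 Mg KO bilirubin, 4891 and 956 CPM in WT bilirubin, and 1877 and 1380 CPM in WT vehicle. All 3 genes were high in the same 3 libraries.

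Of complex I, whose mitochondrially encoded subunits form the proton-pumping arm in the membrane, mt-Nd4 had 3841 and 3484 CPM in TRPM2 Mg KO bilirubin, 6397 and 837 CPM in WT bilirubin, and 1040 and 1032 CPM in WT vehicle. The gene mt-Nd6 is the only member read from the light strand of the mitochondrial genome. It had 67.4 and 70.0 CPM in TRPM2 Mg KO bilirubin, 49.4 and 13.7 CPM in WT bilirubin, and 16.7 and 18.9 CPM in WT vehicle, so both strands showed the difference between the knockout and vehicle libraries. Over the 7 complex I genes, log2 fold changes in TRPM2 Mg KO bilirubin against WT vehicle ran from 1.89 to 2.30.

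Of complex V, mt-Atp6 (the subunit that forms the proton channel beside the ring) had 4361 and 7023 CPM in TRPM2 Mg KO bilirubin, 7087 and 1023 CPM in WT bilirubin, and 1567 and 1409 CPM in WT vehicle. Its overlapping neighbour mt-Atp8, a small subunit of the stalk, had 535 and 221 CPM in TRPM2 Mg KO bilirubin, 131 and 59.9 CPM in WT bilirubin, and 73.4 and 40.9 CPM in WT vehicle. Unlike mt-Atp6, it was higher in both knockout libraries than in both WT bilirubin libraries, with WT bilirubin replicate 1 well below them. Because the genes overlap, the split of counts between mt-Atp8 and mt-Atp6 is uncertain. Also higher in both knockout libraries were mt-Nd6 and mt-Nd3, the latter with 297 and 660 CPM against 276 and 78.6 CPM in WT bilirubin. The log2 fold change of mt-Atp8 was 1.99 (SE 0.55, edgeR adjusted p = 1.00) in TRPM2 Mg KO bilirubin against WT bilirubin, the comparison's 1 member with an unadjusted p under 0.05.

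**Figure D2:**
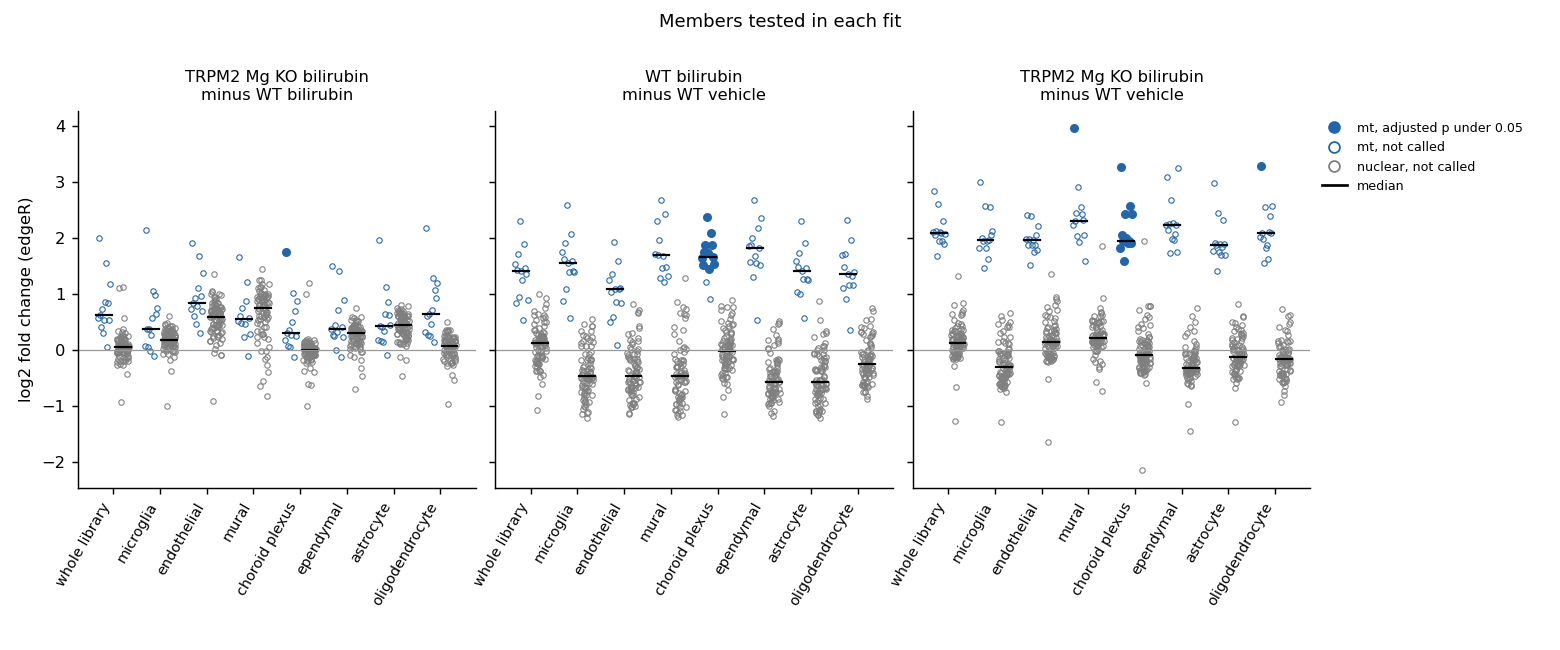
Log2 fold changes of the 13 mitochondrially encoded and the nuclear respiratory chain genes in 3 comparisons, in whole libraries and 7 classes. Each point is a gene, filled where the edgeR adjusted p was under 0.05, and bars are medians. The mitochondrially encoded medians for TRPM2 Mg KO bilirubin against WT vehicle lie between 1.88 and 2.31, and the nuclear ones between -0.32 and 0.21.

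Choroid plexus-like cells were the class in which the mitochondrially encoded genes passed the test across all 14504 genes. All 13 were higher in TRPM2 Mg KO bilirubin than in WT vehicle (0.193% of all genes called, 0.145% higher), 11 of 13 were higher in WT bilirubin than in WT vehicle (0.627% called, 0.221% higher), and 1, mt-Atp8, was higher in TRPM2 Mg KO bilirubin than in WT bilirubin (0.11% called, 0.0414% higher). These cells numbered 1455 and 229 in TRPM2 Mg KO bilirubin, 2349 and 2171 in WT bilirubin, and 96 and 2636 in WT vehicle.

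In these cells mt-Cytb had 4284 and 3368 CPM in TRPM2 Mg KO bilirubin, 5522 and 1551 CPM in WT bilirubin, and 673 and 799 CPM in WT vehicle. Both WT bilirubin libraries were above both WT vehicle libraries. The log2 fold change was 2.43 (SE 0.41, edgeR adjusted p = 1.57e-05) in TRPM2 Mg KO bilirubin against WT vehicle and 2.38 (SE 0.41, edgeR adjusted p = 9.16e-06) in WT bilirubin against WT vehicle. For mt-Nd4, which had 2512 and 2734 CPM in TRPM2 Mg KO bilirubin, 4417 and 1099 CPM in WT bilirubin, and 627 and 782 CPM in WT vehicle, it was 1.95 (edgeR adjusted p = 0.00139) and 2.08 (edgeR adjusted p = 0.000228).

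Choroid plexus-like mt-Atp8 had 333 and 201 CPM in TRPM2 Mg KO bilirubin, 76.6 and 76.4 CPM in WT bilirubin, and 41.6 and 23.7 CPM in WT vehicle. Its libraries separated all 3 groups, with the knockout highest and WT vehicle lowest. Those of mt-Nd6 did so too, at 56.8 and 43.6 CPM in TRPM2 Mg KO bilirubin, 35.6 and 16.9 CPM in WT bilirubin, and 11.3 and 9.07 CPM in WT vehicle. The log2 fold change of mt-Atp8 was 3.27 (SE 0.43, edgeR adjusted p = 4.31e-10) in TRPM2 Mg KO bilirubin against WT vehicle, 1.75 (SE 0.37, edgeR adjusted p = 0.00252) in TRPM2 Mg KO bilirubin against WT bilirubin, and 1.52 (SE 0.41, edgeR adjusted p = 0.038) in WT bilirubin against WT vehicle. In WT vehicle replicate 1, the library with the fewest of these cells, mt-Atp8 rested on 11 UMIs and mt-Nd6 on 3.

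The members that did not pass in WT bilirubin against WT vehicle were mt-Co3 (log2 fold change 1.22, edgeR adjusted p = 0.133) and mt-Nd3 (0.90, edgeR adjusted p = 0.397). For mt-Co3 the choroid plexus-like values were 2423 and 3225 CPM in TRPM2 Mg KO bilirubin, 3089 and 1147 CPM in WT bilirubin, and 1081 and 922 CPM in WT vehicle, and mt-Nd3 overlapped between both wild-type groups. Against WT vehicle, mt-Co3 had the smallest knockout fold change of the 13 as well (1.58, SE 0.40, edgeR adjusted p = 0.0424).

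These calls depended on single libraries to different degrees. Of the 13 calls in TRPM2 Mg KO bilirubin against WT vehicle, 6 were left without TRPM2 Mg KO bilirubin replicate 2 (0.0459% of all genes higher) and 7 without WT vehicle replicate 2 (0.0801%), and mt-Co1, mt-Cytb, mt-Nd4l and mt-Atp8 passed whichever library was left out. Of the 11 calls in WT bilirubin against WT vehicle, 0 were left without WT bilirubin replicate 1 (edgeR, 0.0934% of all genes higher), 5 without WT vehicle replicate 1 (0.125%) and 6 without WT vehicle replicate 2 (0.153%). A group left with 1 library was taken to vary like the other groups. The log2 fold change of mt-Cytb in that comparison was 1.15 without WT bilirubin replicate 1 and 3.08 without its replicate 2. The call of mt-Atp8 between the bilirubin groups was lost without TRPM2 Mg KO bilirubin replicate 1 (1.42, edgeR adjusted p = 0.755) and without WT bilirubin replicate 2 (1.77, edgeR adjusted p = 0.393).

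In the other 6 classes the sizes were alike but few genes passed. Median log2 fold changes of the mitochondrially encoded members in TRPM2 Mg KO bilirubin against WT vehicle ran from 1.88 in astrocyte-like to 2.31 in mural-like cells, beside 1.95 in choroid plexus-like cells. In WT bilirubin against WT vehicle they ran from 1.08 in endothelial-like to 1.81 in ependymal-like cells, and in TRPM2 Mg KO bilirubin against WT bilirubin from 0.29 in choroid plexus-like to 0.83 in endothelial-like cells. In microglia-like cells edgeR called 0 of 13 in each comparison, where 0% (TRPM2 Mg KO bilirubin against WT vehicle), 0.00668% (TRPM2 Mg KO bilirubin against WT bilirubin) and 0.0134% (WT bilirubin against WT vehicle) of all genes passed. Unadjusted p-values were under 0.05 for 13, 1 and 9 of them, beside 5.55%, 2.49% and 14% of all genes, and DESeq2 called 0 in each. The microglia-like calls in TRPM2 Mg KO bilirubin against WT vehicle turned on the setting: edgeR called 13 of 13 higher with no low-count filter (0.167% of all genes higher), 10 with only the 4 libraries compared (0.124%), and 12 without either WT bilirubin replicate 1 (0.169%) or its replicate 2 (0.164%). With no low-count filter it also called 10 higher in WT bilirubin than in WT vehicle (0.496%).

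Endothelial-like, ependymal-like and astrocyte-like cells had 0 calls in each comparison of the main edgeR fit. Of all genes, 0%, 0.00776% and 0.0155% passed in endothelial-like cells in the same order of comparisons, 0%, 0% and 0.011% in ependymal-like and 0%, 0% and 0.00789% in astrocyte-like cells. In endothelial-like cells 12, 3 and 1 of 13 members had an unadjusted p under 0.05, beside 6.88%, 1.82% and 8.47% of all genes. In ependymal-like cells 13, 2 and 11 did, beside 4.22%, 1.82% and 3.67%, and in astrocyte-like cells 12, 1 and 6, beside 3.72%, 3.54% and 12.2%. Without TRPM2 Mg KO bilirubin replicate 1, edgeR called 11 endothelial-like members higher in the remaining knockout library than in WT vehicle (0.851% of all genes higher). DESeq2 called 1 member each in ependymal-like and astrocyte-like cells in TRPM2 Mg KO bilirubin against WT vehicle and 0 otherwise in these classes.

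In the main fit (low-count filter, all 6 libraries, no replicate block), the 1 member edgeR called outside the choroid plexus-like class was mt-Atp8. It was called in TRPM2 Mg KO bilirubin against WT vehicle. In oligodendrocyte-like cells, where 0.0108% of all genes passed in that comparison, it had 517 and 223 CPM in TRPM2 Mg KO bilirubin, 119 and 41.0 CPM in WT bilirubin, and 44.0 and 27.5 CPM in WT vehicle (log2 fold change 3.28, SE 0.49, edgeR adjusted p = 0.0382). The call was lost without TRPM2 Mg KO bilirubin replicate 1 (log2 fold change 2.61). It was also lost with median-of-ratios size factors, with a replicate block whose knockout numbers were crossed, and without Scrublet doublets. It passed in 13 of 17 settings. In this class too the count turned on the setting: edgeR called 13 of 13 higher with no low-count filter (0.108% of all genes higher), 10 with only the 4 libraries compared (0.138%), and 11 without either WT bilirubin replicate 1 (0.133%) or its replicate 2 (0.125%). In WT bilirubin against WT vehicle it called 0 members, where 1.75% of all genes passed, and 9 higher with no low-count filter (0.335%). In that comparison 10 mitochondrially encoded members, all higher, and 3 nuclear members had an unadjusted p under 0.05, beside 15.8% of all genes, and DESeq2 called 0. In mural-like cells, where 0.0803% passed in TRPM2 Mg KO bilirubin against WT vehicle, mt-Atp8 had 74 and 64 UMIs in TRPM2 Mg KO bilirubin, 40 and 0 in WT bilirubin, and 4 and 0 in WT vehicle, too few in WT vehicle to give a level. That call was lost without either WT vehicle library (edgeR adjusted p = 1.00 each), without TRPM2 Mg KO bilirubin replicate 1 (0.0533) and without WT bilirubin replicate 1 (0.132). It was also lost with no low-count filter, with only the 4 libraries compared, with a plain replicate block and by DESeq2. A higher UMI minimum per cell, leaving out Scrublet doublets, and a stricter gate lost it too.

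Setting aside 1 WT bilirubin library changed the picture in several classes. Without WT bilirubin replicate 1, edgeR called 13 of 13 members higher in TRPM2 Mg KO bilirubin than in WT bilirubin in microglia-like cells (1.64% of all genes higher), 11 in oligodendrocyte-like (0.277%), 6 in astrocyte-like (0.731%) and 3 in ependymal-like cells (0.522%). Without WT bilirubin replicate 2, it called 11 members higher in WT bilirubin than in WT vehicle in microglia-like (0.719%) and 11 in oligodendrocyte-like cells (0.383%). In each of these the WT bilirubin group is 1 library, whose spread is taken from the other groups. Which of both WT bilirubin libraries stands for its label cannot be told from the files.

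The make-up of the mitochondrially encoded pool also differed. As a share of its UMIs, mt-Cytb took 19.7% and 14.7% in TRPM2 Mg KO bilirubin, 19.7% and 16.7% in WT bilirubin, and 10.0% and 13.5% in WT vehicle. The share of mt-Co3 was 10.1% and 13.6% in TRPM2 Mg KO bilirubin, 10.0% and 12.2% in WT bilirubin, and 17.5% and 14.95% in WT vehicle. All 4 bilirubin libraries were thus above both WT vehicle libraries for mt-Cytb and below them for mt-Co3, WT bilirubin replicate 2 included.

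By class, the mt-Cytb share was higher in WT bilirubin than in WT vehicle without overlap in 7 of 7 classes, and higher in TRPM2 Mg KO bilirubin than in WT vehicle in 5 of 7. For mt-Co3 it was lower in 6 of 7 in both comparisons. In choroid plexus-like cells mt-Cytb took 18.2% and 13.4% in TRPM2 Mg KO bilirubin, 17.9% and 15.7% in WT bilirubin, and 10.4% and 12.6% in WT vehicle. The mt-Atp8 share was higher in TRPM2 Mg KO bilirubin than in WT vehicle in 5 of 7 classes and than in WT bilirubin in 4 of 7. Against WT bilirubin, the knockout share of mt-Nd6 was higher in 4 of 7 as well. That of mt-Co1 was higher in 2 and those of mt-Nd2 and mt-Nd5 in 1 each, while mt-Nd4 was lower in 2. Microglia-like cells had an mt-Atp8 share of 1.46% and 0.91% in TRPM2 Mg KO bilirubin, 0.28% and 0.68% in WT bilirubin, and 0.74% and 0.46% in WT vehicle. The share of mt-Co2 overlapped between groups in every class and comparison. Other genes also separated the wild-type groups: mt-Nd1 was lower in WT bilirubin than in WT vehicle in 4 of 7 classes. The shares of mt-Nd2, mt-Atp6, mt-Nd3 and mt-Nd5 were lower in 3 each, with mt-Atp6 higher in 1. These shares of 1 pool are not independent of each other, and were compared without a test. The classes come from the same libraries, so they are not separate observations.

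**Figure D3:**
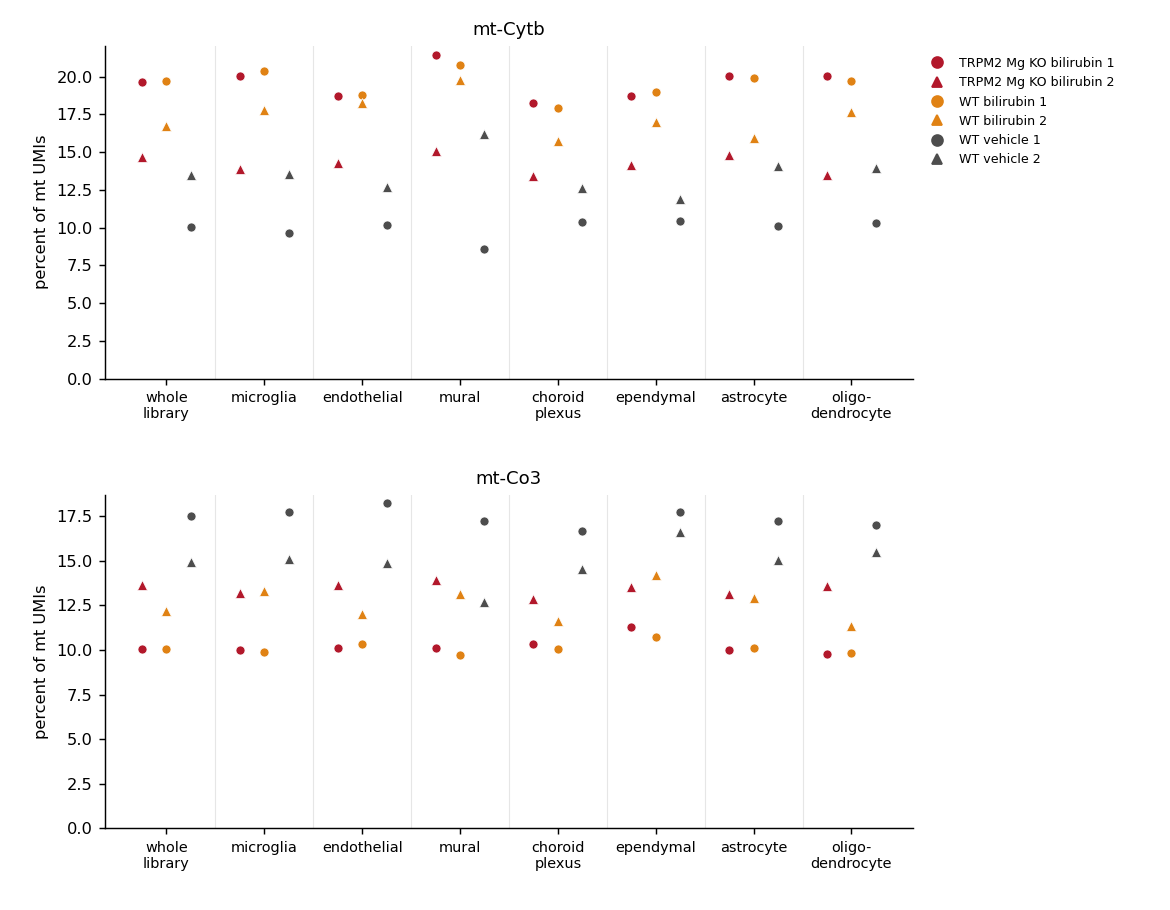
Share of 1 gene in all mitochondrially encoded respiratory chain UMIs, in percent, per library. Points are libraries, for mt-Cytb and mt-Co3, in whole libraries and 7 classes. In whole libraries, the 4 bilirubin libraries lie between 14.7% and 19.7% for mt-Cytb and between 10.0% and 13.6% for mt-Co3, and WT vehicle at 10.0% and 13.5%, and 17.5% and 14.95%.

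No nuclear member passed in any comparison, in whole libraries or in the 7 classes, in the main edgeR fit or with DESeq2. At an unadjusted p under 0.05, whole libraries had 1 of 86 in TRPM2 Mg KO bilirubin against WT vehicle, 0 in TRPM2 Mg KO bilirubin against WT bilirubin and 1 in WT bilirubin against WT vehicle, against the shares of all genes given above. Median log2 fold changes were 0.12, 0.05 and 0.13, and single genes ran from -1.28 to 1.33, from -0.93 to 1.13 and from -1.07 to 1.00. By complex, medians in TRPM2 Mg KO bilirubin against WT vehicle were 0.13 for complex I, 0.17 for complex II, 0.22 for complex III, -0.04 for complex IV and 0.19 for complex V, where the mitochondrially encoded genes of complexes I, III, IV and V had medians of 2.07, 2.60, 2.06 and 2.47.

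The most abundant nuclear members per complex show how the libraries lay. Ndufa4 had 2477 and 2611 CPM in TRPM2 Mg KO bilirubin, 3097 and 3231 CPM in WT bilirubin, and 1748 and 3862 CPM in WT vehicle. Uqcr11, a small subunit of complex III, had 1263 and 2094 CPM, 1270 and 1858 CPM, and 1423 and 2024 CPM in that order of groups. Uqcr11 overlapped between all groups. Ndufa4 was lower in both TRPM2 Mg KO bilirubin than in both WT bilirubin libraries, and the WT vehicle libraries lay on either side of these 4.

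Cox8a, the ubiquitous form of the smallest complex IV subunit, had 3805 and 4880 CPM in TRPM2 Mg KO bilirubin, 3835 and 4568 CPM in WT bilirubin, and 4720 and 5415 CPM in WT vehicle. Atp5g1, which encodes the c subunit of the complex V ring, had 2025 and 2338 CPM in TRPM2 Mg KO bilirubin, 2281 and 2502 CPM in WT bilirubin, and 1027 and 3039 CPM in WT vehicle. Cox8a was lower in both WT bilirubin libraries than in either WT vehicle library, and Atp5g1 overlapped. The other genes of this choice, Ndufa13, Uqcr10, Cox6c and Atp5h, had between 894 and 2936 CPM per library.

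Complex II, which joins the citric acid cycle to the chain and has no mitochondrially encoded part, had no member with a p under 0.05 in whole libraries, with or without adjustment. Its catalytic flavoprotein Sdha had 104 and 81.2 CPM in TRPM2 Mg KO bilirubin, 91.7 and 109 CPM in WT bilirubin, and 103 and 89.9 CPM in WT vehicle. The iron-sulphur subunit Sdhb had 263 and 269 CPM, 307 and 238 CPM, and 219 and 287 CPM. The membrane anchors were Sdhc, at 91.6 and 80.5 CPM in TRPM2 Mg KO bilirubin, 135 and 110 CPM in WT bilirubin, and 65.0 and 99.4 CPM in WT vehicle, and Sdhd, at 125 and 103 CPM, 150 and 107 CPM, and 48.1 and 103 CPM. Both anchors were higher in the WT bilirubin libraries than in the WT vehicle libraries, and Sdhc was lower in both TRPM2 Mg KO bilirubin libraries than in both WT bilirubin libraries.

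The 1 nuclear member with an unadjusted p under 0.05 in whole libraries was Cox6a2, the heart and muscle form of a complex IV subunit. It had 6.58 and 5.59 CPM in TRPM2 Mg KO bilirubin, 8.61 and 6.10 CPM in WT bilirubin, and 23.4 and 10.0 CPM in WT vehicle. Both WT vehicle libraries lay above the other 4. Its log2 fold change was -1.28 (SE 0.38, edgeR adjusted p = 0.73) in TRPM2 Mg KO bilirubin against WT vehicle and -1.07 (SE 0.37, edgeR adjusted p = 0.411) in WT bilirubin against WT vehicle.

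In microglia-like cells 20 of 85 nuclear members had an unadjusted p under 0.05 in WT bilirubin against WT vehicle, all 20 lower, against 14% of all genes in either direction. None passed the adjusted test. The median log2 fold change of the 85 was -0.47 beside 0.05 over all genes. Medians were -0.45 for complex I, 0.02 for complex II, -0.49 for complex III, -0.67 for complex IV and -0.45 for complex V. Ndufb4, an accessory subunit of complex I with the smallest p of the 85, had 110 and 162 CPM in TRPM2 Mg KO bilirubin, 107 and 109 CPM in WT bilirubin, and 273 and 159 CPM in WT vehicle (log2 fold change of WT bilirubin against WT vehicle -1.11, SE 0.34, edgeR adjusted p = 0.226). Cox8a had 2275 and 2735 CPM, 2213 and 1595 CPM, and 3658 and 3120 CPM in that order of groups in these cells, also without overlap of the wild-type groups.

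Microglia-like nuclear members were called once WT bilirubin replicate 1 was left out: 6 of 86 (6.98%) were lower in WT bilirubin than in WT vehicle, near the 5.57% of all genes called lower in that fit, namely Ndufb9, Cox5b-ps, Cox6a1, Ndufa12, Cox4i2 and Ndufa4l2. These calls rest on WT bilirubin replicate 2 alone in that group. With all 6 libraries and no low-count filter, 1 nuclear member was called in this comparison. This was Ndufa3, lower in WT bilirubin (log2 fold change -1.19, SE 0.34, edgeR adjusted p = 0.0417). The share of all genes called lower in that fit is not given here. Medians of the nuclear members in WT bilirubin against WT vehicle were below 0 in all 7 classes, from -0.57 in astrocyte-like and ependymal-like cells to -0.02 in choroid plexus-like cells. Choroid plexus marker RNA moved with the libraries too, as given above, and its part in these values was not tested.

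A pattern noticed after the values were seen concerned transcript length. Lengths, taken from GENCODE M21 for 86 of 88 nuclear members (97.7%), ran from 351 to 4715 nucleotides with a median of 764. This median split the members into 43 longer and 43 shorter ones. Which transcript of each gene the cells expressed was not tested. Atp5g1 and Ndufb2, at 4715 and 4371 nucleotides, had coding parts of 408 and 315 nucleotides. The UMIs of the longer over those of the shorter members came to 0.618 and 0.528 in TRPM2 Mg KO bilirubin, 0.621 and 0.552 in WT bilirubin, and 0.466 and 0.527 in WT vehicle. Both WT bilirubin libraries lay above both WT vehicle libraries, in whole libraries and in 7 of 7 classes.

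Over the 84 members tested with a length, Spearman's rho of length with the log2 fold change in whole libraries was 0.46 in TRPM2 Mg KO bilirubin against WT vehicle, -0.22 in TRPM2 Mg KO bilirubin against WT bilirubin and 0.43 in WT bilirubin against WT vehicle. Over all 15666 genes with a length, it was -0.31, -0.06 and -0.25. Members thus ran opposite to the genes at large in both comparisons with WT vehicle. The points share libraries and the rho is a description across genes, which are not independent. Longer members had a median log2 fold change of 0.23 and shorter ones of -0.11 in WT bilirubin against WT vehicle. By coding length instead, whole libraries gave ratios of 0.682 and 0.550 in TRPM2 Mg KO bilirubin, 0.724 and 0.559 in WT bilirubin, and 0.475 and 0.569 in WT vehicle, which overlapped, and WT bilirubin stayed above WT vehicle without overlap in 4 of 7 classes (microglia-like, ependymal-like, astrocyte-like and oligodendrocyte-like).

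**Figure D4:**
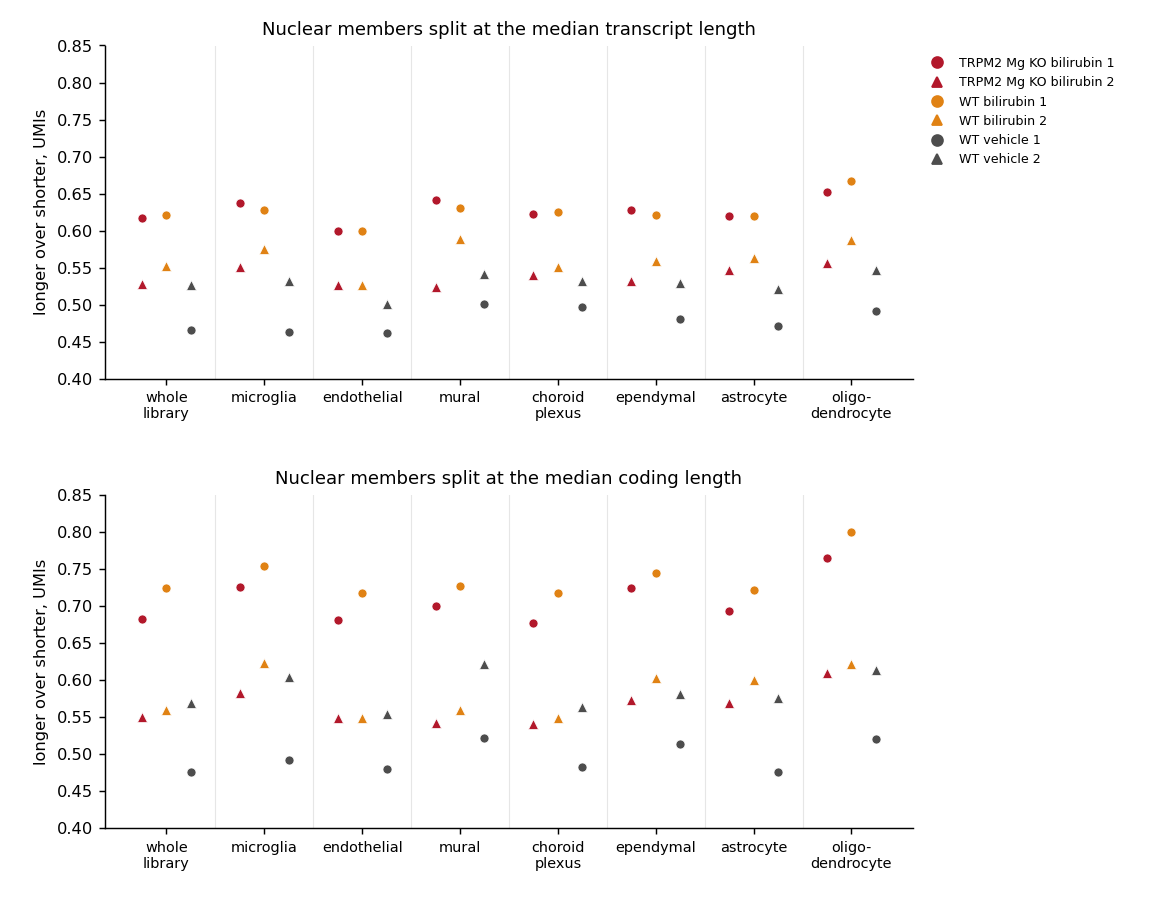
Ratio of the UMIs of longer to those of shorter nuclear members, split at the median transcript length (upper panel) or coding length (lower panel), in whole libraries and 7 classes. Each point is 1 library, and the axis does not start at 0. WT bilirubin libraries lie at 0.621 and 0.552 and WT vehicle libraries at 0.466 and 0.527 in whole libraries.

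Between classes the order of levels was steadier than between groups. Choroid plexus-like cells had the highest nuclear share in 6 of 6 libraries (median 9.86%), and microglia-like cells the lowest in 6 of 6 (median 3.76%). The other 5 classes had medians of 4.98% to 5.93%, and their ranges overlapped. The ratio of mitochondrially encoded to nuclear UMIs was lowest in choroid plexus-like cells in 6 of 6 libraries (median 0.176) and highest in astrocyte-like cells in 6 of 6 (median 0.586). Of 86 nuclear members, 73 had their highest median in choroid plexus-like cells, 55 of these in 6 of 6 libraries. Choroid plexus marker RNA was counted in every other class, as given above, and its part in this order was not tested.

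For the widely expressed isoforms the choroid plexus-like level stood above the microglia-like one. Ndufa4 had a median over 6 libraries of 4646 CPM in choroid plexus-like and 1347 CPM in microglia-like cells. Cox4i1, the common form of complex IV subunit 4, had medians of 2784 and 1212 CPM in that order of classes, and Cox8a 6601 and 2505 CPM. Cox6a1, Cox6b1 and Cox7a2 were also highest in choroid plexus-like cells in 6 of 6 libraries. Cox7a2l, known for its part in joining complexes III and IV into supercomplexes, was level across classes, with medians of 98.9 CPM in choroid plexus-like to 128 CPM in endothelial-like cells.

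Tissue-restricted isoforms had other classes at the top. Ndufa4l2, the hypoxia-responsive paralog of Ndufa4, had 515 and 64.6 CPM in TRPM2 Mg KO bilirubin, 464 and 398 CPM in WT bilirubin, and 171 and 344 CPM in WT vehicle in mural-like cells (253 UMIs in all). Its next highest class was endothelial-like, with a median of 16.9 CPM, so mural-like cells were highest in 6 of 6 libraries. Cox4i2, the form of subunit 4 known from lung and from oxygen-sensing cells, had 295 and 82.0 CPM, 241 and 448 CPM, and 105 and 214 CPM in that order of groups in mural-like cells (164 UMIs in all), with astrocyte-like cells next at a median of 16.3 CPM. Mural-like cells are the contractile cells of the vessel wall, and both genes were highest there in every library while the rest of the nuclear members were not. In TRPM2 Mg KO bilirubin replicate 2 both were lowest, and in that library the sum of mural markers in this class was 1688 CPM, against 6104 to 20847 CPM in the other 5.

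Of the muscle-type isoforms, Cox8b and Cox7a1 were highest in choroid plexus-like cells in 6 of 6 libraries. Cox8b had 146 and 80.1 CPM in TRPM2 Mg KO bilirubin, 112 and 227 CPM in WT bilirubin, and 163 and 145 CPM in WT vehicle there, against a median of 46.9 CPM in the next class, mural-like cells. Cox7a1 had 85.6 and 99.8 CPM, 66.7 and 127 CPM, and 140 and 109 CPM in choroid plexus-like cells. Cox6b2, a form known from testis, had a median of 100.3 CPM there, against 63.1 CPM in ependymal-like cells. Cox6a2 was highest in microglia-like cells by its median of 17.4 CPM, but in 3 of 6 libraries only. Cox8c, a testis form, had 0 UMIs in the 7 classes, and Cox7b2 at most 7.40 CPM in the astrocyte-like class, where its median was highest.

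**Figure D5:**
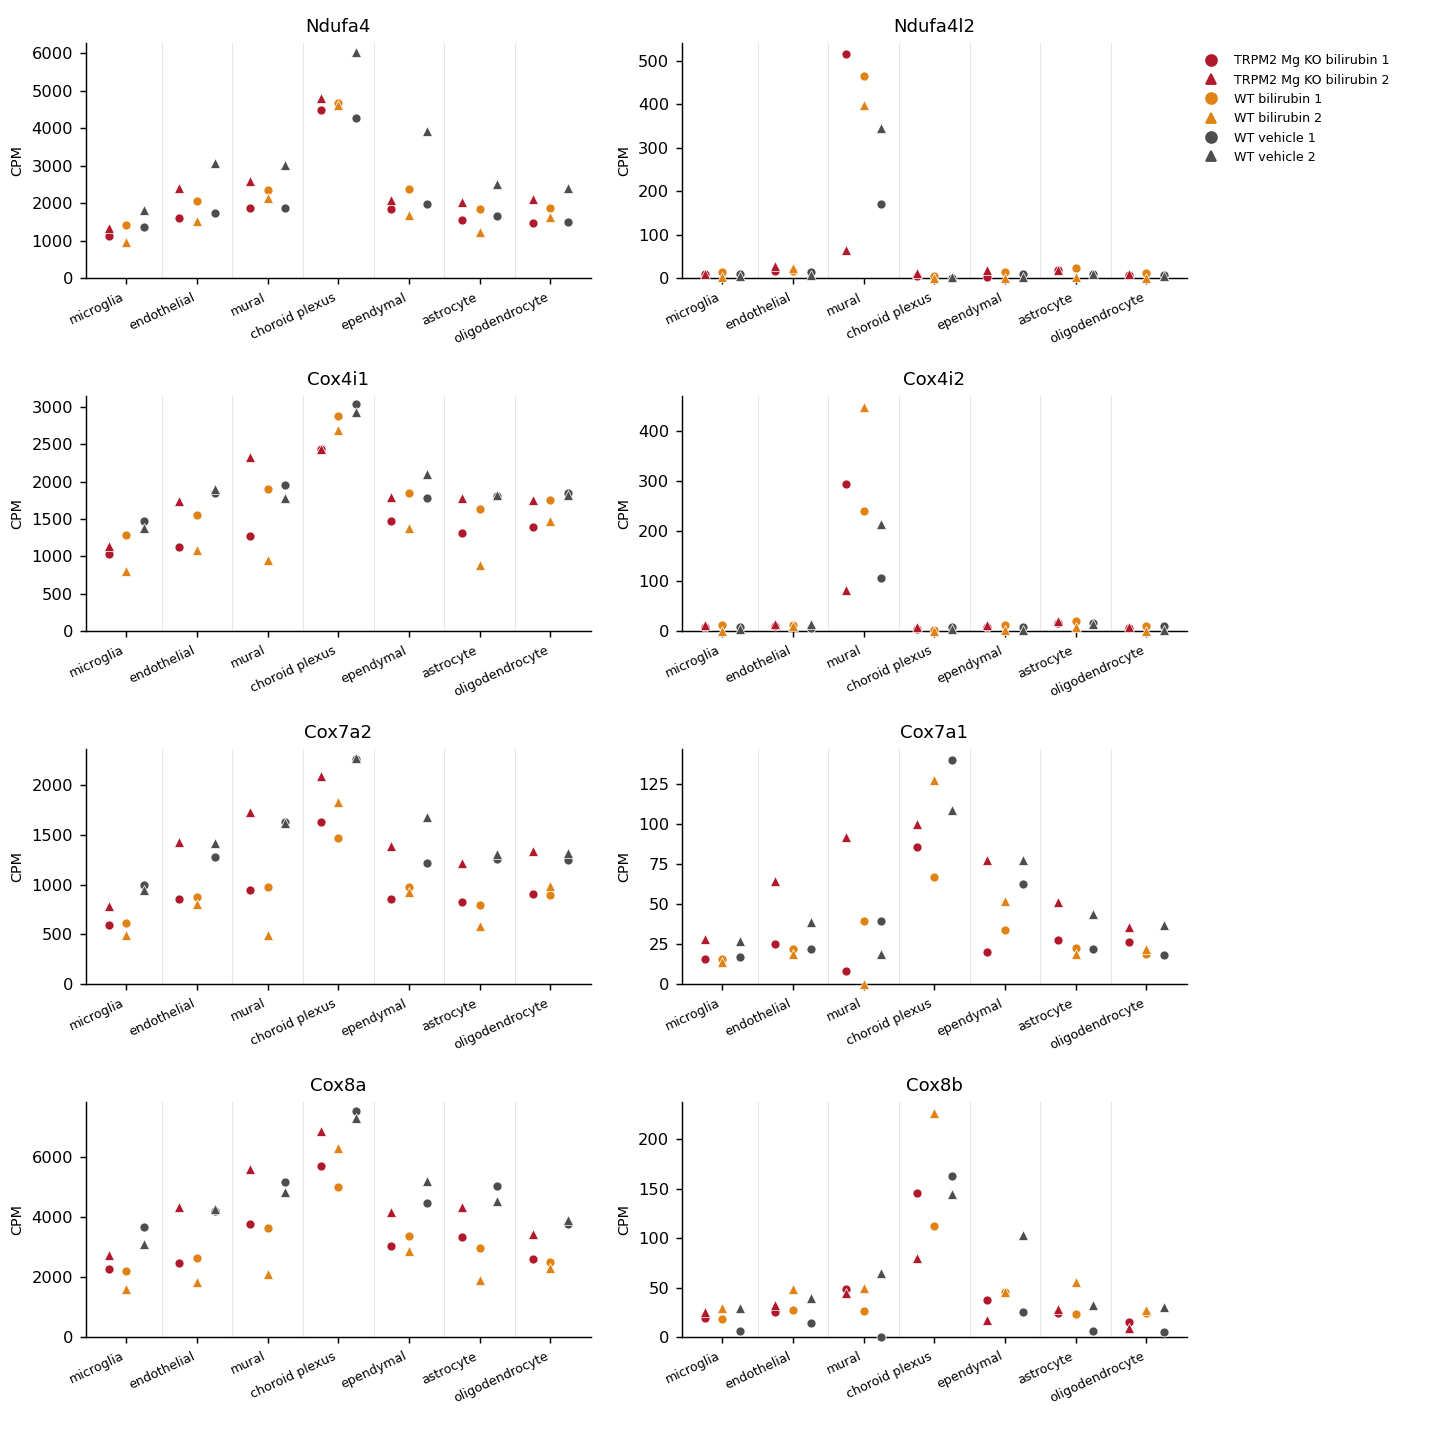
CPM of isoform genes of complexes I and IV in 7 marker-gated classes, on a linear axis from 0. Each point is 1 library. Ndufa4l2 and Cox4i2 are highest in mural-like cells, and Cox8b and Cox7a1 in choroid plexus-like cells, in 6 of 6 libraries each.

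The promoters of nuclear members hold known motifs that the rule for choosing genes did not use. RefSeq windows from 250 bases before to 50 after the start (build GRCm38.p6) matched 70 nuclear members, with 75 windows. On either strand, the letters of nuclear respiratory factor 1 (NRF1), GCGCA and GCGC with any 1 base between them, were in 24% of them, against 4.60% of all 32851 windows. The letters CCGGAAG, bound by ETS factors such as GABPA (nuclear respiratory factor 2), were in 22.7% against 8.86%. The letters AANATGGCG of YY1 were in 13.3% against 2.38%, and TATAAA was in 12% against 13.6%. The motifs do not overlap in the windows shown. In all, 39 windows held at least 1 of the NRF1, ETS and YY1 motifs. A match is a description of the letters and no sign of binding. Shown are 3 windows of widely expressed genes of complexes I, II and IV that hold these letters, and that of the muscle-type Cox8b, which holds none of them but TATAAA. Motifs are in capitals, and all 4 genes lie on the minus strand: Sdhd at chr9:50603800-50604099 (NRF1, and CTTCCGG, the reverse complement of CCGGAAG), Ndufs6, a complex I subunit, at chr13:73328433-73328732 (NRF1 on the other strand, and YY1), Cox8a at chr19:7217567-7217866 (CTTCCGG at 2 places) and Cox8b at chr7:140900397-140900696 (TATAAA).
Sdhd: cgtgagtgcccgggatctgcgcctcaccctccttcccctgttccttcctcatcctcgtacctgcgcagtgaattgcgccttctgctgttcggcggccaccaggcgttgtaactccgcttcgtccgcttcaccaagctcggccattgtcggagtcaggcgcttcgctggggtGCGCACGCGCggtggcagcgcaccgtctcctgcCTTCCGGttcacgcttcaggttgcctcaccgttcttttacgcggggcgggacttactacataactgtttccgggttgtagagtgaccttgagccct
Ndufs6: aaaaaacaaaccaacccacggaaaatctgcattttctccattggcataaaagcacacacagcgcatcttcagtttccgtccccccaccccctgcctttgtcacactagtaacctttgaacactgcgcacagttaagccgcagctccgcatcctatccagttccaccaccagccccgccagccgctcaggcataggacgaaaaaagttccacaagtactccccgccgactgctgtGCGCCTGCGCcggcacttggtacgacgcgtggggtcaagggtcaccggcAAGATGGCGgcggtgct
Cox8a: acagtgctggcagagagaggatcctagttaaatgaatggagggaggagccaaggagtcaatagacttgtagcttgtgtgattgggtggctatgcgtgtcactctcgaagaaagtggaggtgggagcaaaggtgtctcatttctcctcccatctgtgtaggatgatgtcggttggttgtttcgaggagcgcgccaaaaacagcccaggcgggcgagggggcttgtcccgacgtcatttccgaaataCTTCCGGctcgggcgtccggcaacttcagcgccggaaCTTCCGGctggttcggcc
Cox8b: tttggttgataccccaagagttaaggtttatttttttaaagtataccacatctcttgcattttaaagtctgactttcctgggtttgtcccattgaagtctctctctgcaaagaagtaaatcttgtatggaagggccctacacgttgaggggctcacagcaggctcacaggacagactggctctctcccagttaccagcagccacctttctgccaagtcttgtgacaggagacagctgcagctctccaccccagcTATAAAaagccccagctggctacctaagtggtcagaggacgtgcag

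The genes that build and serve the chain were followed as lists from outside the membership. In whole libraries edgeR called 0 members of 44 assembly factors, 22 genes of mitochondrial transcription and RNA handling, 9 nuclear regulators of mitochondrial genes, 18 electron carriers and citric acid cycle genes, and 78 mitochondrial ribosomal proteins, in each of the 3 comparisons. At an unadjusted p under 0.05 there were 3, 2, 1, 1 and 1 in TRPM2 Mg KO bilirubin against WT vehicle, 0 in each against WT bilirubin, and 1, 0, 0, 0 and 1 in WT bilirubin against WT vehicle. These counts stand against the shares of all genes under 0.05 given above for whole libraries. Ndufaf7, a methyltransferase that acts in complex I assembly, had a log2 fold change of 0.88 (SE 0.36, edgeR adjusted p = 0.74) in TRPM2 Mg KO bilirubin against WT vehicle. Prorp, the nuclease that frees mitochondrial tRNAs from their precursors, had 0.76 (SE 0.30, edgeR adjusted p = 0.74), and the citric acid cycle enzyme Fh1 had 0.96 (SE 0.38, edgeR adjusted p = 0.74). Of the regulators, Ppargc1b, a coactivator of mitochondrial biogenesis genes, had -0.85 (SE 0.35, edgeR adjusted p = 0.74) and the oestrogen-related receptor Esrrg -0.77 (SE 0.37, edgeR adjusted p = 0.74). Mrps30, a protein of the mitochondrial ribosome, had 0.77 (SE 0.34, edgeR adjusted p = 0.74). Medians of these 5 lists in that comparison were 0.23, 0.32, -0.01, 0.35 and 0.26, all far below the 2.09 of the mitochondrially encoded members and beside 0.07 over all genes.

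Lists of early response and dissociation transcripts and of RNA kept in the nucleus were followed too. Early response and dissociation transcripts (10 genes) had a median log2 fold change of 0.73 in TRPM2 Mg KO bilirubin against WT vehicle, 0.24 in TRPM2 Mg KO bilirubin against WT bilirubin and 0.25 in WT bilirubin against WT vehicle. RNA kept in the nucleus (6 genes) had medians of -0.51, -0.32 and -0.12. In whole libraries these RNAs took 0.976% and 1.41% of UMIs in TRPM2 Mg KO bilirubin. They took 0.689% and 1.49% in WT bilirubin, and 1.38% and 0.804% in WT vehicle, so the groups overlapped. In astrocyte-like cells WT bilirubin replicate 2 had 10.1%, against 2.07% to 3.20% in the other libraries. That library was also highest in whole libraries and in microglia-like (2.15%), endothelial-like (2.34%), mural-like (4.73%) and ependymal-like cells (2.69%). In oligodendrocyte-like cells it was highest by little (3.90%, against 3.88% in TRPM2 Mg KO bilirubin replicate 2). It was not highest in choroid plexus-like cells (0.286%, against 0.325% in WT vehicle replicate 1). The immediate-early gene Junb had a log2 fold change of 1.18 (SE 0.46, edgeR adjusted p = 0.74) and the nuclear RNA Miat -0.97 (SE 0.43, edgeR adjusted p = 0.74) in TRPM2 Mg KO bilirubin against WT vehicle. None of either list was called in whole libraries by edgeR, with 2, 0 and 1 and with 1, 0 and 0 genes at an unadjusted p under 0.05, against the shares of all genes given above. Their part in the mitochondrially encoded share was not tested.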

How the data were processed

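The authors deposited 1 matrix of counts per library: raw UMIs for each gene in each cell. The labels name the Chromium Next GEM 3' kit and sequencing on a NovaSeq instrument; Cell Ranger 8.0.0, Scanpy 1.9.6 and 2 builds (GRCm39 and mm10) are listed in the submitters' processing notes, while the matrices, per the file headers, come from Cell Ranger 9.0.1. The barcode and gene tables hold names only, an other kind of deposited content. The sources used here do not say on which build the counts were made.

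Cells with at least 500 UMIs and 300 genes were kept (94760 of 95014). A cell was gated to a class when at least 3 of its markers stood at 2 or more times their mean share and outnumbered those of any other class by 2 times; 36757 cells had markers of several classes and 18545 too few. Doublets were not removed, and Scrublet in scanpy 1.11.5, which marked 11109 cells (11.7%, at the expected rate in the 4 libraries where its threshold failed), was an alternative. UMIs were summed per library and class. Shares are percent of the UMIs in such a sum and CPM are such counts scaled to a common total. Counts were tested with edgeR 4.0.16 in R 4.3.3 (TMM, filterByExpr, quasi-likelihood test, two-sided) in 1 fit of all 6 libraries on group alone (3 residual degrees of freedom), adjusted by Benjamini and Hochberg over all genes at 0.05; a standard error is the fold change over the root of the test statistic. DESeq2 1.42.0 was an alternative, as were no low-count filter, other cell filters and gates, only the 4 libraries compared, a replicate block, and each library left out. The test was tested on simulated data first.

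The members and lists were chosen with earlier results of these data known. Named were all mitochondrially encoded members, the most abundant and isoform genes of each complex, called genes, and the smallest p of each list. Same-numbered replicates are not stated to share an animal or day, and their deviations correlated at -0.180, -0.117 and 0.0519. With so few libraries per group this cannot decide whether the numbers pair the samples. The main fit used no pairing. Promoter windows are from RefSeq on GRCm38.p6 and lengths from GENCODE M21. Mitochondrial rRNA was not used here.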

Additional observations from a re-analysis of the deposited data

How the results depend on the processing

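In whole libraries, edgeR called 0 mitochondrially encoded members in each comparison. With no low-count filter it called 5 in TRPM2 Mg KO bilirubin against WT vehicle and 1 in TRPM2 Mg KO bilirubin against WT bilirubin, and DESeq2 called 3 in the first of these. For nuclear members, 1 (Ndufa4l2) was called in TRPM2 Mg KO bilirubin against WT vehicle with no low-count filter, and 0 to 1 (Cox8b, without WT vehicle replicate 2) in WT bilirubin against WT vehicle when each library was left out. In choroid plexus-like cells, the 13 mitochondrially encoded calls of TRPM2 Mg KO bilirubin against WT vehicle became 8 with DESeq2, 8 with a replicate block whose knockout numbers were crossed, a pairing chosen after seeing the data, and 6 to 12 with each library left out. The 11 of WT bilirubin against WT vehicle became 5 with DESeq2, 4 with the crossed block, and 0 to 10. The 1 of TRPM2 Mg KO bilirubin against WT bilirubin became 0 to 2, and nuclear calls there 0 to 1 (Ndufa4l2, without WT bilirubin replicate 1). The plain replicate block gave 13, 8 and 1 in these cells and 0 in each whole-library comparison, and is given as a hint only. The counts in this section stand without the share of all genes called in the same fit. That share is given above for some fits, but not for DESeq2 or the replicate blocks. The counts here are not read against it. As the median over cells rather than of sums, the log2 ratio of TRPM2 Mg KO bilirubin over WT vehicle was 2.48, against 2.01. The cause of these changes was not tested. Of 457 recomputed gene calls 353 were kept and 104 lost, and none changed direction. Depth limits the mural-like class, with 20 to 116 cells per library, and the choroid plexus-like class of WT vehicle replicate 1, with 96.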

Other observations

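The highest mitochondrially encoded share of any single cell was 43.2% and 15.1% in TRPM2 Mg KO bilirubin, 28.9% and 36.9% in WT bilirubin, and 11.7% and 12.9% in WT vehicle, so WT bilirubin replicate 2 also held single cells with a high share although its total share was low. The median share per cell was 5.68% and 3.81% in TRPM2 Mg KO bilirubin, with the 95th percentile at 10.6% and 8.12%. In WT bilirubin replicate 1 the median was 7.37% and the 95th percentile 13.9%.

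In oligodendrocyte-like cells 3 genes of the early response and nuclear RNA lists were lower in WT bilirubin than in WT vehicle by edgeR, where 1.75% of all genes passed. These were the RNAs Meg3 (log2 fold change -1.63, SE 0.37, adjusted p = 0.0343) and Snhg11 (-1.49, SE 0.36, adjusted p = 0.0467), both mainly kept in the nucleus, and the stress-response factor Atf3 (-1.34, SE 0.32, adjusted p = 0.0456). The sums of both lists overlapped between these groups. RNA kept in the nucleus took 1.81% and 3.90% of UMIs in WT bilirubin and 2.81% and 2.07% in WT vehicle. The early response list took 0.192% and 0.0921%, and 0.158% and 0.104%, in that order. No respiratory chain member passed in that class and comparison by edgeR or DESeq2, as given above.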
